A study of Mus musculus with 10 samples.

Results

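The 39 Hox genes of the mouse were followed across 8 lists of enriched regions from primary cortical neurons. They are all protein-coding RefSeq genes on GRCm38/mm10 whose symbols are Hoxa, Hoxb, Hoxc or Hoxd followed by a number, 39 of 21887 protein-coding genes. The regions come from chromatin immunoprecipitation and sequencing (ChIP-seq) of C57BL/6J cortical neurons at day 6 in vitro, all kept overnight in 3% serum and then given KCl, which depolarizes them, at 50 mM for 45 min, or left untreated. The antibodies, against H3K4me1, H3K27ac, Gtf3c1 and Rpc155 (the largest RNA polymerase III subunit) each gave 1 deposited list per condition. With 1 list per antibody and condition, nothing below has a replicate check and no difference was tested.

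Hox genes encode homeodomain transcription factors that give cells their position along the body axis, and their order along each cluster follows the order in which they are expressed from hindbrain to tail. The cerebral cortex forms in front of the Hox expression domain. In cells that do not use them, Hox clusters are a textbook target of Polycomb repressors, which Trithorax-group proteins oppose. H3K4me1 lies at enhancers, around active promoters and at many CpG-rich promoters that are not transcribed, H3K27ac lies at active enhancers and promoters, and Gtf3c1 is the largest subunit of TFIIIC, which recruits RNA polymerase III to tRNA genes and also binds sites without the polymerase. RNA and Polycomb marks were not analysed here, so the clusters are described by the 4 antibodies and are not called silent.

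The Hoxa cluster was taken as chr6:52155367-52260880 (11 genes), the Hoxb cluster as chr11:96194316-96368254 (10 genes), the Hoxc cluster as chr15:102921131-103036856 (9 genes) and the Hoxd cluster as chr2:74668225-74765142 (9 genes), 492 kb in all. H3K4me1 was called present at a start where a region overlapped its window, 250 bases before to 50 after. Its presence went with the CpG content of that window, and the sequences below show starts with and without it. Each line gives the 250 bases before a RefSeq start (GRCm38.p6, 5′ to 3′ along the gene), with each CG dinucleotide (CpG) in capitals. Hoxa13 (chr6:52260881-52261130, minus strand) and Hoxd13 (chr2:74667975-74668224, plus strand) are genes of the digits and genital tubercle. They had the most CpG among the available start windows of their clusters, and H3K4me1 overlapped both windows in both lists. At Hoxd13 the KCl region (chr2:74668176-74668710) reached into the bases shown, and the untreated region (chr2:74668255-74668765) began past them, in the window's last 50 bases.
Hoxa13: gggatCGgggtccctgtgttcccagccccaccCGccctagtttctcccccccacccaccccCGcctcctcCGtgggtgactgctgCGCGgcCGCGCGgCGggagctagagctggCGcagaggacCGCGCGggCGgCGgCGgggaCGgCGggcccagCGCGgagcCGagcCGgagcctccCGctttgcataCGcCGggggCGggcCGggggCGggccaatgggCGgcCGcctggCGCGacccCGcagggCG
Hoxd13: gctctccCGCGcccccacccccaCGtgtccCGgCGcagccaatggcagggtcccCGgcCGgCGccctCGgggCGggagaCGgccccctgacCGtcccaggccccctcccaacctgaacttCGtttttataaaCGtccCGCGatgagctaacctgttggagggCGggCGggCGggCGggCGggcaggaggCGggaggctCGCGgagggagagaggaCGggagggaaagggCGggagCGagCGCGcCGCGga
Hoxa9 (chr6:52227371-52227620, minus strand), a gene of blood progenitors, and Hoxd4 (chr2:74721728-74721977, plus strand), a gene of the hindbrain and neck vertebrae, carried none. Their windows had the fewest CpG among those available for their clusters, Hoxd4 level with one of the Hoxd11 starts.
Hoxa9: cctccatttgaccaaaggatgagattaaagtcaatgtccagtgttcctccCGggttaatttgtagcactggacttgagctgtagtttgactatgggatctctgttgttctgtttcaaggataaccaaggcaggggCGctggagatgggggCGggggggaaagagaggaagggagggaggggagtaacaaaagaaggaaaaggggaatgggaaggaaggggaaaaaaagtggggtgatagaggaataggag
Hoxd4: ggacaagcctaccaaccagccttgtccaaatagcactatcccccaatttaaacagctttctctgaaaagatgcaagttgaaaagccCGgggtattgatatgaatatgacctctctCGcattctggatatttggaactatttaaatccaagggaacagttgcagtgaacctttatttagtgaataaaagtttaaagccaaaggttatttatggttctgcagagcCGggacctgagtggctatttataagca
Hoxa6 (chr6:52208673-52208922, minus strand) had many CpG without H3K4me1, and Hoxc4 (chr15:103034145-103034394, plus strand) carried H3K4me1 with few CpG.
Hoxa6: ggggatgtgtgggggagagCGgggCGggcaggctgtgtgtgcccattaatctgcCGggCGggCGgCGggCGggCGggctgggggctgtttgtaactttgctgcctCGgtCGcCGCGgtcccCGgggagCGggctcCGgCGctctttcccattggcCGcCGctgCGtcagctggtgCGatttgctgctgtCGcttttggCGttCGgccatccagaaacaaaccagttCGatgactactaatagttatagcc
Hoxc4: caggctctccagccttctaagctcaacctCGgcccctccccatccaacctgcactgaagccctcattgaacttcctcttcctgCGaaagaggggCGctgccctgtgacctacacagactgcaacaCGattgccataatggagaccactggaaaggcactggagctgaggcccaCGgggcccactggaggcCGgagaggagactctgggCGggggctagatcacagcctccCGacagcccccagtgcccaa
These stretches held 35 CpG in Hoxa13 and 31 in Hoxd13, against 3 in Hoxa9 and 3 in Hoxd4. Hoxa6 had 24 and Hoxc4 had 8.

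The whole lists held 4251 regions (Rpc155, KCl) to 193683 regions (H3K4me1, KCl), each with the authors' fold enrichment, the ratio of the summit to its local background. Read depth cannot be read from the lists, and a gene without a region is one where nothing passed the authors' threshold, not one shown to lack the mark. The labelled cell type was checked with marker genes that had H3K27ac within 5 kb. Glutamatergic neuron markers had it at 8 of 8 genes with KCl and 8 of 8 untreated, and GABAergic markers at 7 of 7 with KCl and 6 of 7 untreated. In the KCl and untreated lists the counts were 5 and 6 of 7 for astrocytes, 3 and 4 of 7 for the oligodendrocyte lineage, 1 and 1 of 7 for microglia, 3 and 3 of 7 for endothelium and 3 and 1 of 8 for meningeal fibroblasts. Over all protein-coding genes the share was 66% with KCl and 62.9% untreated. Astrocyte markers thus lay above it in both lists. Those of the oligodendrocyte lineage, microglia, endothelium and meningeal fibroblasts lay below it. The part of such cells in the Hox results was not tested.

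The Hox genes differed from other genes in opposite directions for the 2 histone marks. H3K4me1 lay within 5 kb of 37 of the 39 genes in the KCl list (94.9%, exact Clopper-Pearson 95% interval 82.7 to 99.4) and of 36 in the untreated list (92.3%, 79.1 to 98.4). Over all protein-coding genes the share was 77.9% with KCl and 77.8% untreated. Over the 16380 genes no longer than the longest Hox gene (Hoxa3, 44009 bp) it was 71.9% (KCl) and 71.8% (untreated). These genes are called the short ones below, but the limit is set by the long Hoxa3 span, so gene length was not matched. Only Hoxb1 had H3K4me1 in neither list, where 21% of all protein-coding genes had none. Hoxb2 and Hoxc11 had it in the KCl list alone (1.25% of all genes) and Hoxb4 in the untreated list alone (1.16%).

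H3K27ac showed the reverse. It lay within 5 kb of 3 Hox genes in the KCl list (7.69%, 1.62 to 20.9) and of 2 in the untreated list (5.13%, 0.627 to 17.3), where 66% (KCl) and 62.9% (untreated) of all protein-coding genes had a region and 58.9% and 55.6% of the short ones. In neither list had 36 Hox genes H3K27ac, where 32.7% of all genes had none, and 0 had it in the untreated list alone, where 1.3% of all genes did. Gtf3c1 lay near 5 Hox genes with KCl (12.8%, 4.30 to 27.4) and near 2 untreated (5.13%), against 58.6% (KCl) and 60.1% (untreated) of all protein-coding genes and 51.3% and 51.9% of the short ones. Rpc155 lay near 2 with KCl (5.13%), against 14.6% of all genes and 11.8% of the short ones. It lay near 0 of 39 untreated, with an exact interval of 0 to 9.03% (3 counts of 39 would make 7.69%), against 33.6% of all genes and 28.1% of the short ones. Neither list of Gtf3c1 touched 33 Hox genes (35.5% of all genes), and neither list of Rpc155 touched 37 (62.9% of all genes). Neighbouring Hox genes share regions, so these counts are not independent, and the intervals cover counting error only.

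**Figure D1:**
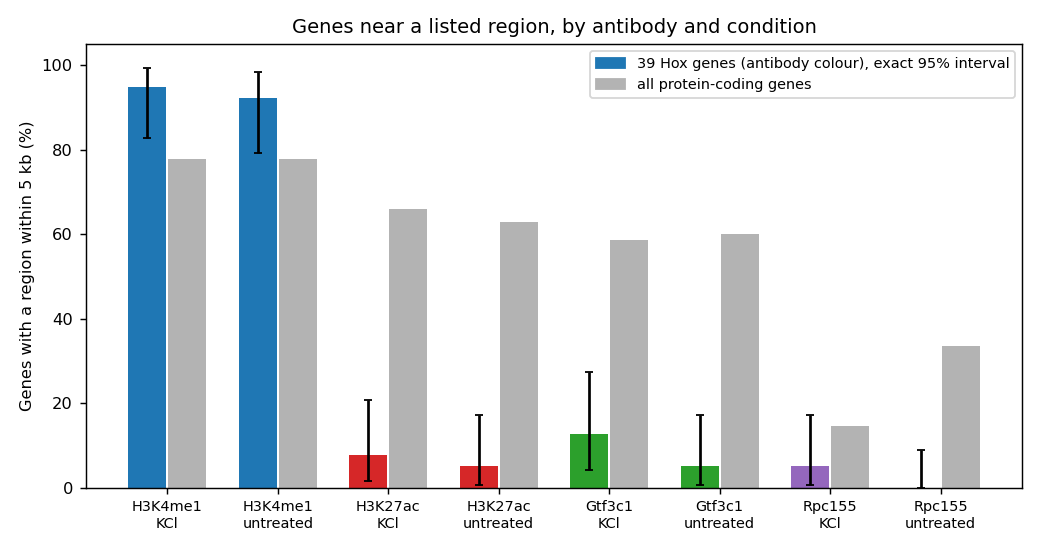
Share of genes with a listed region within 5 kb (y axis, %) for each antibody and condition (x axis), the 39 Hox genes in colour with exact 95% intervals and all protein-coding genes in grey. H3K4me1 stands above its grey bar in both conditions (94.9% of Hox genes with KCl and 92.3% untreated), while the other antibodies stand below theirs.

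Counted as base pairs, which do not depend on gene borders, H3K4me1 regions covered 7.38% of the 4 clusters with KCl and 7.24% untreated, close to the 6.72% (KCl) and 6.51% (untreated) of chromosomes 1 to 19, X and Y. H3K27ac covered 0.165% of the clusters with KCl and 0.0677% untreated, against 2.64% and 2.61% of those chromosomes. In the 100 kb on either side of each cluster H3K27ac covered 1.65% with KCl and 2.15% untreated. The flanks differed among the clusters: H3K27ac covered 3.59% (KCl) and 5.58% (untreated) of those of Hoxb, and 0.537% and 0% of those of Hoxa. H3K4me1 covered 5.71% of the flanks with KCl and 6.43% untreated. Hoxd and Hoxa lay above their flanks for H3K4me1 in both lists, most of all Hoxd (10.4% with KCl and 9.78% untreated, flanks 2.27% and 2.47%). Hoxb lay below its flanks (4.86% and 5.14%, flanks 8.13% and 8.88%). Hoxc lay above them with KCl (7.84%, flanks 7.38%) and below them untreated (7.06%, flanks 9.04%). Gtf3c1 covered 0.117% of the clusters with KCl and 0.0404% untreated (1.08% and 1.14% of the chromosomes), and Rpc155 0.0585% and 0% (0.0735% and 0.227%).

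**Figure D2:**
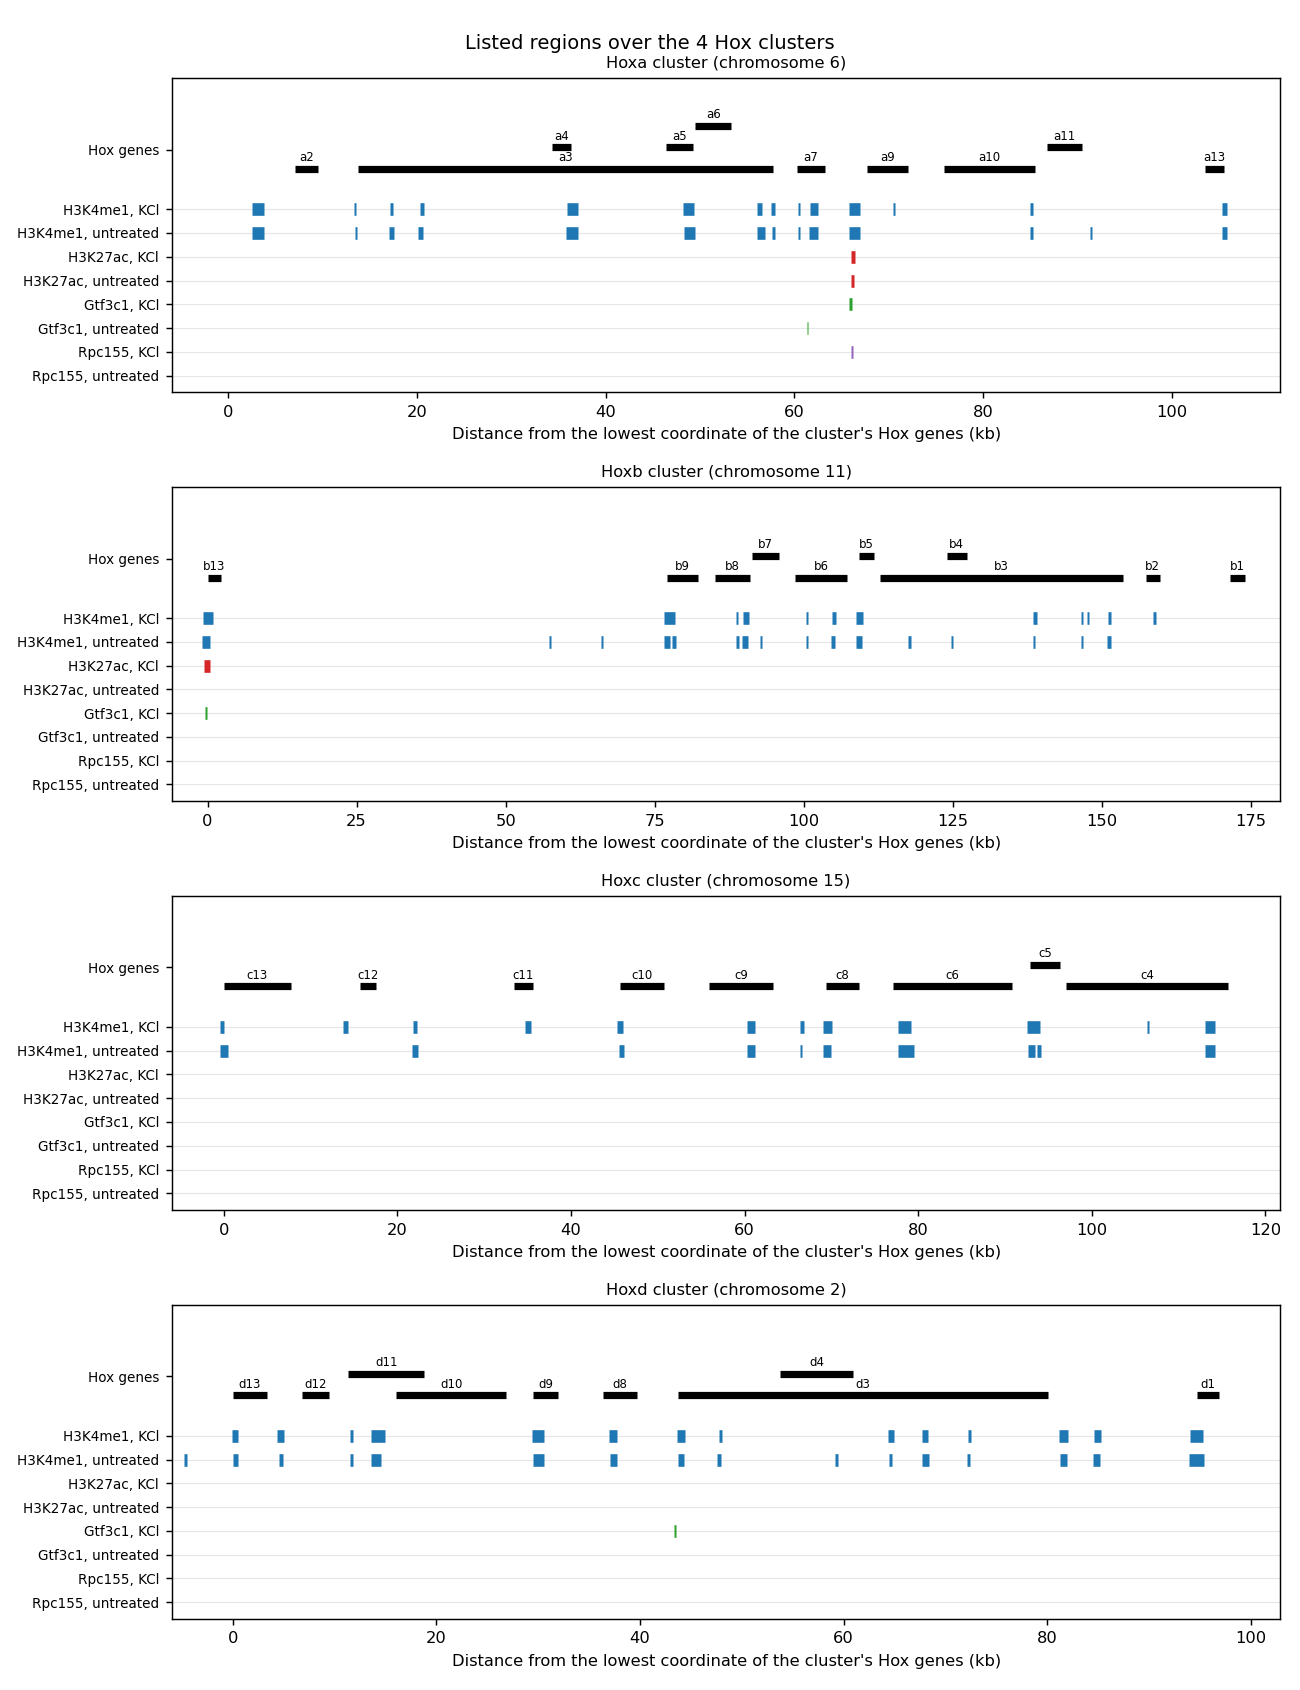
Map of the 4 clusters to scale (x axis, kb from the lowest coordinate of the cluster's Hox genes), with the Hox genes reported here as black bars and the regions of each list as coloured bars, KCl above untreated for each antibody. H3K4me1 regions (52 with KCl, 55 untreated over the clusters) are spread along all 4 clusters, and the few regions of the other antibodies sit between Hoxa7 and Hoxa9, in Hoxa7, at the Hoxb13 edge and beside the Hoxd3 start.

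The H3K4me1 regions over the clusters were ordinary in strength and width for their lists. Their median fold enrichment was 4.59 with KCl (range 2.31 to 11.8), against 4.24 over the whole list, and 4.44 untreated (2.02 to 9.42), against 4.13. Above the median of their own list lay 31 of 52 regions with KCl (59.6%) and 33 of 55 untreated (60%). The median width was 597.5 bp with KCl and 616 bp untreated, against 607 bp (KCl) and 599 bp (untreated) over the lists, and the widest spanned 1842 and 1848 bp. The called regions were thus short and separate, as over the whole lists.

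The map was largely the same in both conditions. Of the KCl regions over the clusters, 46 of 52 overlapped an untreated region (88.5%, 76.6 to 95.6), against 78.5% of the whole list, and of the untreated regions 48 of 55 overlapped a KCl region (87.3%, 75.5 to 94.7), against 81.7%. The 6 KCl regions without a partner had a median fold enrichment of 3.36, against 5.21 for the shared ones in that list, and the 7 untreated ones had 3.55, against 4.61. The unshared regions were thus weaker at the median in both lists, as they were genome-wide. Over the whole lists the medians were 3.18 unshared and 4.77 shared with KCl, and 3.02 and 4.62 untreated.

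The strongest H3K4me1 region of the KCl list over the clusters lay at the start of Hoxd1 (chr2:74762305-74763513), a gene of pain-sensing neurons in the mouse, with a fold enrichment of 11.8 and a −log10 q of 48.7. In the untreated list the region there (chr2:74762193-74763677) had 8.53. The strongest untreated region lay at the start of Hoxc8 (chr15:102990149-102991090), a gene of brachial motor neurons, with a fold enrichment of 9.42 and a −log10 q of 33.6; the KCl region there (chr15:102990212-102991184) had 7.95. Both starts were thus far from H3K27ac: the nearest region lay 60.2 kb (KCl) and 60.4 kb (untreated) from Hoxd1 and 99.1 kb (KCl) and 96.2 kb (untreated) from Hoxc8.

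Genes are given next in the order of the body axis, by the share of each gene with its 5 kb flanks that H3K4me1 covered. Over all 39 the median was 9.77% with KCl and 9.44% untreated. The 12 genes of paralog groups 1 to 4, which pattern the hindbrain, cranial nerves and pharyngeal arches, had medians of 8.49% with KCl and 8.20% untreated. The 15 genes of groups 5 to 9, which act at neck, forelimb and chest level, had 11.5% with KCl and 11.2% untreated, and the 12 of groups 10 to 13, of the lumbar, tail, limb and urogenital regions, had 6.97% and 5.88%. The classes overlapped: in the KCl list they ranged from 0% to 11.7%, 7.63% to 24.8% and 1.52% to 14.4% in that order.

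Among the anterior genes, Hoxb1, which specifies a single hindbrain segment and its facial motor neurons, had no H3K4me1 region within 5 kb in either list; the nearest lay 12.3 kb away with KCl and 13.8 kb away untreated. Hoxd1, of the same paralog group, was covered at 9.94% with KCl and 12.2% untreated. Hoxb2, which acts in the same hindbrain segment, had a region with KCl (chr11:96352959-96353435, fold enrichment 4.04) and none untreated, where the nearest lay 5.82 kb away. Hoxb4, a gene of blood stem cells and the posterior hindbrain, had none with KCl (nearest 11.1 kb) and one of fold enrichment 3.55 untreated (chr11:96318991-96319289). All 3 lie towards the Hoxb1 end of the Hoxb cluster.

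Hoxa2, the selector gene of the hyoid arch, had 11.7% with KCl and 11.4% untreated. The long RefSeq spans of Hoxa3, Hoxb3 and Hoxd3, genes of the pharyngeal glands and neck, reach over their neighbours: Hoxa3 had 9 regions in each list, Hoxb3 had 5 with KCl and 6 untreated, and Hoxd3 had 7 with KCl and 8 untreated. In the KCl and untreated lists coverage was 10.1% and 11.1% for Hoxa3, 5.86% and 6.59% for Hoxb3, and 8.46% and 8.34% for Hoxd3. Of the group 4 genes, which pattern the posterior hindbrain and neck, Hoxa4 had 10.5% with KCl and 10.5% untreated, Hoxc4 had 10.1% and 8.22%, and Hoxd4 had 3.10% and 3.88%. Hoxd4 was thus low in both lists.

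The central genes were all covered in both lists. Hoxa7, a gene of the trunk vertebrae, had the highest share of all 39, 24.8% with KCl and 26.1% untreated, followed by its neighbour Hoxa6 with 15.9% (KCl) and 16.9% (untreated). Hoxa5, needed for lung development, had 9.75% with KCl and 9.44% untreated, Hoxb5 had 13.5% and 13.6%, and Hoxc5 had 11.1% and 9.46%. In the KCl and untreated lists coverage was 10.2% and 10.9% at Hoxb6, 12.4% and 13.2% at Hoxc6, 11.9% and 14.5% at Hoxb7, and 9.43% and 11.2% at Hoxb8, a gene of spinal sensory circuits. Of the genes that pattern motor neuron columns, Hoxc8 had 13.3% with KCl and 12% untreated, Hoxc9 had 7.63% and 6.70%, and Hoxd8, Hoxd9, Hoxa9 and Hoxb9 lay between 8.21% and 12.1%.

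Several posterior genes had low values. Hoxa10, of the lumbar spine and uterus, had 1.52% with KCl and 1.24% untreated, and Hoxa11, of the forearm and uterus, had 2.18% with KCl and 3.29% untreated. Hoxc10, of lumbar motor neurons, had 3.93% with KCl and 4.14% untreated. Hoxc11, a hindlimb gene, had a KCl region of fold enrichment 4.24 (chr15:102955872-102956517) and none untreated, where the nearest lay 9.90 kb away. The posterior Hoxd genes, the digit and forearm group, were covered more: Hoxd10 at 13.7% with KCl and 11.4% untreated, Hoxd11 at 9.77% and 7.58%, Hoxd12 at 14.4% and 13.7%, and Hoxd13 at 8.63% and 9.48%. Hoxa13 had 4.35% with KCl and 4.21% untreated, Hoxc12 had 9.56% and 6.39%, Hoxc13, a hair and nail gene, had 2.91% and 5.37%, and Hoxb13, a gene of the prostate and tail, had 13.5% and 10.1%.

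**Figure D3:**
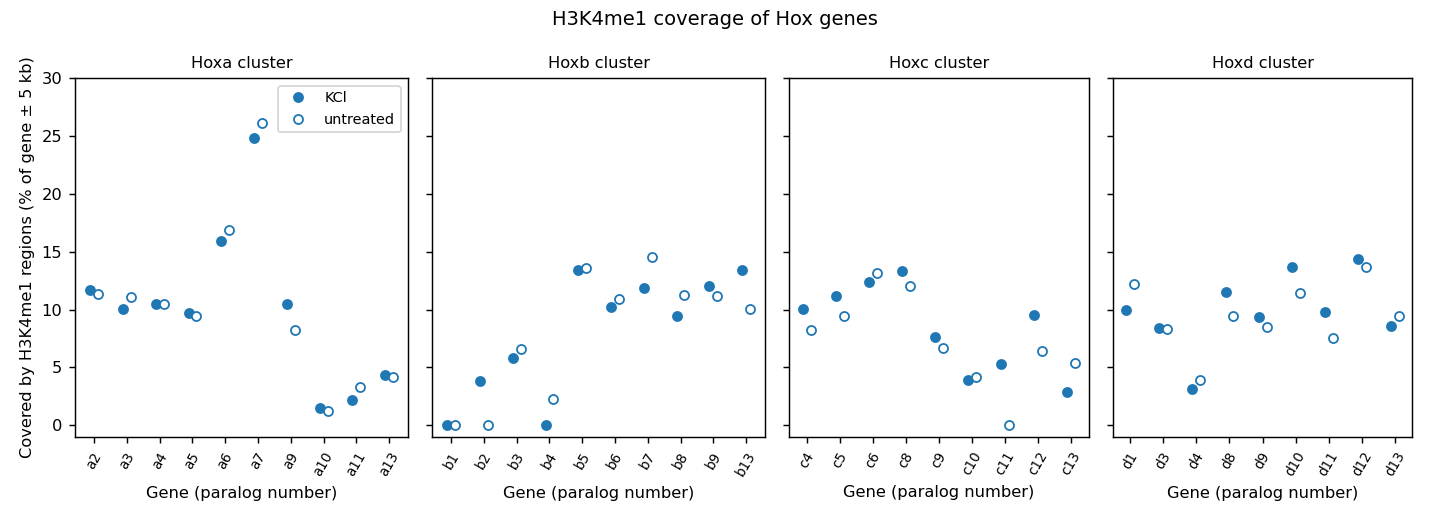
Share of each Hox gene reported here, with its 5 kb flanks, covered by H3K4me1 regions (y axis, %), by cluster and paralog number (x axis), filled circles for the KCl list and open circles for the untreated list, with no error bars since each condition has 1 list. Hoxa7 stands highest (24.8% with KCl and 26.1% untreated), Hoxb1 lies at 0 in both lists, and the circles of most genes lie close together.

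By cluster, H3K4me1 covered 10.4% of Hoxd with KCl and 9.78% untreated, and in those lists 8.19% and 8.54% of Hoxa, 7.84% and 7.06% of Hoxc, and 4.86% and 5.14% of Hoxb. The order was the same in both lists. Hoxb also held the longest stretch inside a cluster without H3K4me1, the interval between Hoxb13 and Hoxb9, 75.7 kb with KCl (chr11:96195175-96270891). In the untreated list it ran 56.9 kb (chr11:96194696-96251575), since regions at chr11:96251576-96251924 and chr11:96260249-96260681, of fold enrichment 3.20 and 3.91, were found in that list alone. The longest such stretch that touched the other clusters reached beyond them: 37.3 kb (KCl) and 38.2 kb (untreated) at Hoxa, 26.0 and 50.6 kb at Hoxc, and 61.4 and 61.2 kb at Hoxd. Of the regions over the clusters, 37 of 52 with KCl and 39 of 55 untreated had their summit inside a Hox gene. The other summits lay between Hox genes or, at the edges of some clusters, just beyond the outermost one. The matching share over the whole lists was not computed.

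H3K27ac was listed at a single place inside the clusters in both conditions, the interval between Hoxa7 and Hoxa9. The KCl region (chr6:52221322-52221741) had a fold enrichment of 3.65 and a −log10 q of 6.83, and the untreated region (chr6:52221366-52221698) had 3.43 and 6.12. In other mouse cells this interval holds a CTCF-bound border between the anterior and posterior Hoxa genes; CTCF was not analysed here. The strongest H3K4me1 region of the Hoxa cluster in each list lay over it, chr6:52221109-52222325 with a fold enrichment of 9.01 with KCl and chr6:52221145-52222316 with 7.64 untreated.

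The same interval also held Gtf3c1 and Rpc155 regions, in the KCl list alone. Gtf3c1 (chr6:52221108-52221444) had a fold enrichment of 5.20, higher than 85.2% of its list, and a −log10 q of 10.5. Rpc155 (chr6:52221314-52221601) had a fold enrichment of 3.27, higher than 16.1% of its list, and a −log10 q of 2.39. Each overlapped the H3K27ac and H3K4me1 regions of the KCl lists, as most of their lists did: 87.3% of Rpc155 regions with KCl overlapped H3K27ac and 86.4% H3K4me1, and of Gtf3c1 regions 51.6% and 70.4%. No other Rpc155 region lay over the clusters in either list. Of all protein-coding genes 3.52% had Rpc155 within 5 kb in the KCl list alone, as Hoxa7 and Hoxa9 had here through 1 region, and 22.6% had it in the untreated list alone, as no Hox gene did.

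The other H3K27ac region lay at the edge of Hoxb13 in the KCl list alone (chr11:96193804-96194707), with a fold enrichment of 3.65 and a −log10 q of 6.83. A Gtf3c1 region of the KCl list alone lay within it (chr11:96193898-96194191, fold enrichment 4.13, −log10 q 6.27), 0.125 kb outside the gene. H3K4me1 was there in both lists, with a fold enrichment of 5.48 with KCl (chr11:96193521-96195174) and 4.44 untreated (chr11:96193457-96194695). The nearest untreated H3K27ac region lay 117.7 kb from Hoxb13. Of all protein-coding genes 4.41% had H3K27ac in the KCl list alone, so 1 gene of 39 is near the background. Markers of meningeal fibroblasts with H3K27ac numbered 3 of 8 with KCl (Col1a1, Dcn and Foxc1), against 1 of 8 untreated (Dcn). These counts lay below the shares over all protein-coding genes, and the part of such cells in this region was not tested.

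Gtf3c1 had 2 further regions. With KCl, one lay just before the start of Hoxd3, within 5 kb of Hoxd8 too (chr2:74711550-74711787, fold enrichment 3.95, −log10 q 5.63). Untreated, one lay inside Hoxa7, within 5 kb of the long Hoxa3 span (chr6:52216654-52216852, fold enrichment 3.22, −log10 q 3.33). Hoxa7 was thus the only Hox gene near Gtf3c1 in both lists, through different regions. Hoxa9, Hoxb13, Hoxd3 and Hoxd8 had Gtf3c1 in the KCl list alone, 4 of 39 through 3 regions, where 4.47% of all protein-coding genes did, and Hoxa3 in the untreated list alone, 1 of 39 where 5.9% did. The KCl list of Gtf3c1 was the shorter of the pair, 58090 regions against 66622 untreated. The Hoxc cluster had no Gtf3c1, Rpc155 or H3K27ac region in any list.

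Around these places H3K27ac left stretches empty, and their lengths are set beside those of other stretches below. With KCl the stretch over Hoxd ran 245.9 kb and held all 9 Hoxd genes and Evx2, a homeobox gene beside the cluster; untreated it ran 246.1 kb with the same genes. The stretch over Hoxc ran 293.8 kb with KCl and 212.2 kb untreated, each with all 9 Hoxc genes. The longest at Hoxb ran 209.2 kb with KCl and held the genes other than Hoxb13, and untreated 327.5 kb with all 10 and Calcoco2 and Ttll6. At Hoxa the region between Hoxa7 and Hoxa9 divided the cluster, and the longest stretch lay on a different side in each list. With KCl it was 144.7 kb on the Hoxa7 side (7 Hox genes), where the untreated stretch ran 337.5 kb (7 Hox genes). Untreated it was 418.0 kb on the Hoxa9 side (4 Hox genes and Evx1), most of it beyond the cluster. The median distance from a Hox gene to the nearest H3K27ac region was 77.1 kb with KCl and 76.2 kb untreated.

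H3K4me1 without H3K27ac was measured against other genes without H3K27ac, which were not matched for CpG content. The 36 Hox genes without H3K27ac in either list had H3K4me1 within 5 kb at 34 with KCl (94.4%) and 33 untreated (91.7%). Of the 7116 other protein-coding genes without H3K27ac, 33.0% had H3K4me1 with KCl and 33.0% untreated (33.3% in each list with the Hox genes included), and of the 6502 no longer than the longest Hox gene, 30.0% and 30.1%. The 14735 genes with H3K27ac had it at 99.5% with KCl and 99.3% untreated. The Hox share was thus closer to that of genes with H3K27ac than to that of all genes without. Over CpG-rich start windows alone, described below, H3K4me1 overlapped 66.7% for Hox genes in each list. For other genes without H3K27ac it overlapped 60.1% (KCl) and 61.2% (untreated) of such windows. Transcription factors of other lineages, most without H3K27ac, had H3K4me1 at 27 (KCl) and 28 (untreated) of 30, so the trait is not particular to Hox genes. Region by region, 2 of 52 H3K4me1 regions over the clusters overlapped H3K27ac with KCl and 1 of 55 untreated, against 28.4% (KCl) and 29.3% (untreated) of the whole lists.

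The comparison was repeated by stretch rather than by gene, since Hox genes are packed closely. Stretches of 20 kb or more with 5 or more protein-coding genes and no H3K27ac in a list were collected across the genome. In the 4 that held 5 or more Hox genes, H3K4me1 covered a median of 5.77% with KCl (4.38 to 6.78) and 5.38% untreated (4.18 to 6.41). In those with no Hox gene the median was 0.573% with KCl (264 stretches, 0 to 19.1) and 0.740% untreated (288 stretches, 0 to 21.8). The lowest Hox value was exceeded by 18 of the 264 (KCl) and 30 of the 288 (untreated), and the highest by 2 and 11. Olfactory or vomeronasal receptor genes were the commonest family in 56 (KCl) and 58 (untreated) of these stretches. A further untreated stretch, with 4 Hoxa genes and Evx1, had 3.89%. The median length of the 4 Hox stretches was 227.5 kb with KCl and 286.8 kb untreated. Stretches with no Hox gene were longer at the median, 485.9 kb with KCl and 473.6 kb untreated, and length was not matched.

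**Figure D4:**
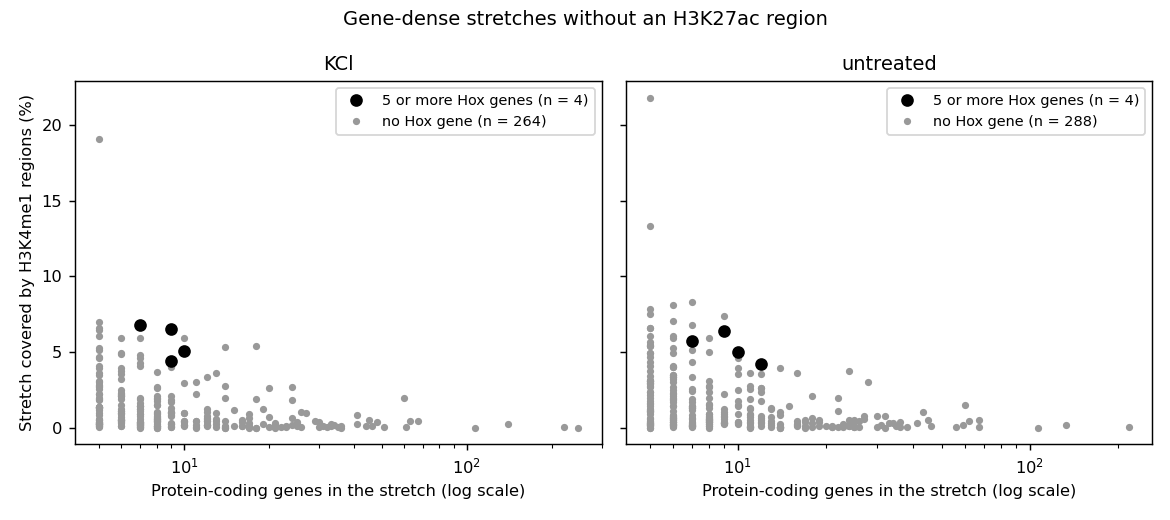
Share covered by H3K4me1 regions (y axis, %) against the number of protein-coding genes (x axis, log scale) for stretches of 20 kb or more with 5 or more genes and no H3K27ac region, KCl on the left and untreated on the right, with stretches of 5 or more Hox genes in black. The 4 Hox stretches (4.38% to 6.78% with KCl, 4.18% to 6.41% untreated) lie in the upper part of the cloud, with some other stretches above them.

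Where within the genes H3K4me1 lay was read from RefSeq start windows, 250 bases before to 50 after a start. There were 24 windows for 22 of the 39 genes, most of them in Hoxa and Hoxd. Hoxb had windows for Hoxb1, Hoxb4 and Hoxb8 only and Hoxc for Hoxc4 only, so the start results say little about those clusters. H3K4me1 overlapped 9 of the 24 with KCl (37.5%) and 9 untreated (37.5%), against 44.2% (KCl) and 40.6% (untreated) of all 21263 protein-coding windows. It overlapped the same 9 in both lists. No Hox window had H3K27ac, against 53.2% (KCl) and 44.8% (untreated) of all windows. Gtf3c1 overlapped 1 of the 24 with KCl, that of Hoxd3, and 0 untreated, against 37.9% (KCl) and 33.4% (untreated) of all windows. Of CpG-rich windows (15 or more CpG) of other genes without H3K27ac, Gtf3c1 overlapped 3.84% with KCl and 2.01% untreated.

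CpG content split the windows. The 24 held a median of 14.5 CpG, against 13 over all windows, and 12 of them had 15 or more, a level that 46.8% of all windows reached. H3K4me1 overlapped 8 of these 12 in both lists: Hoxa13 (45 CpG), Hoxd13 (37), Hoxa5 (29), Hoxd1 (29), one of the Hoxd11 starts (25), Hoxa3 (20), Hoxd3 (20) and Hoxd9 (20). The other 4, without H3K4me1, were Hoxa6 (26), Hoxd10 (22), one of the Hoxa10 starts (21) and Hoxa11 (15). Of the 12 windows with fewer CpG, 1 had H3K4me1, that of Hoxc4 (9 CpG), and among those without were Hoxa2, Hoxa7, Hoxa9, Hoxb1, Hoxb4, Hoxb8, Hoxd4, Hoxd8 and Hoxd12. The sequences printed above are the extremes of this split.

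Other genes showed the same split. In other genes without H3K27ac, H3K4me1 overlapped 60.1% (KCl) and 61.2% (untreated) of 547 windows with 15 or more CpG, and 6.60% (KCl) and 6.76% (untreated) of 5668 with fewer. In genes with H3K27ac it overlapped 62.3% (KCl) and 54.9% (untreated) of 9398 CpG-rich windows.

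The position of H3K4me1 around the start differed between genes with and without H3K27ac. With KCl, 37.5% of Hox starts lay inside a region at the start and 37.5% 250 bp into the gene, and 0% from 750 to 1750 bp before it. The 12 CpG-rich ones among the 24 Hox starts had 66.7% at the start and 50% at 250 bp into the gene. The 547 other CpG-rich starts of genes without H3K27ac had 57.0% at the start, with 22.1% at 500 bp before it and 13.7% at 1250 bp after it. CpG-rich starts of genes with H3K27ac had a dip in the middle, 30.8% at 250 bp into the gene, between 59.9% at 500 bp before and 69.7% at 1250 bp after. In the untreated list the share at the start was 58.3% for the CpG-rich Hox starts and 58.7% for the other CpG-rich starts of genes without H3K27ac, and those with it had a dip to 24.9%.

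**Figure D5:**
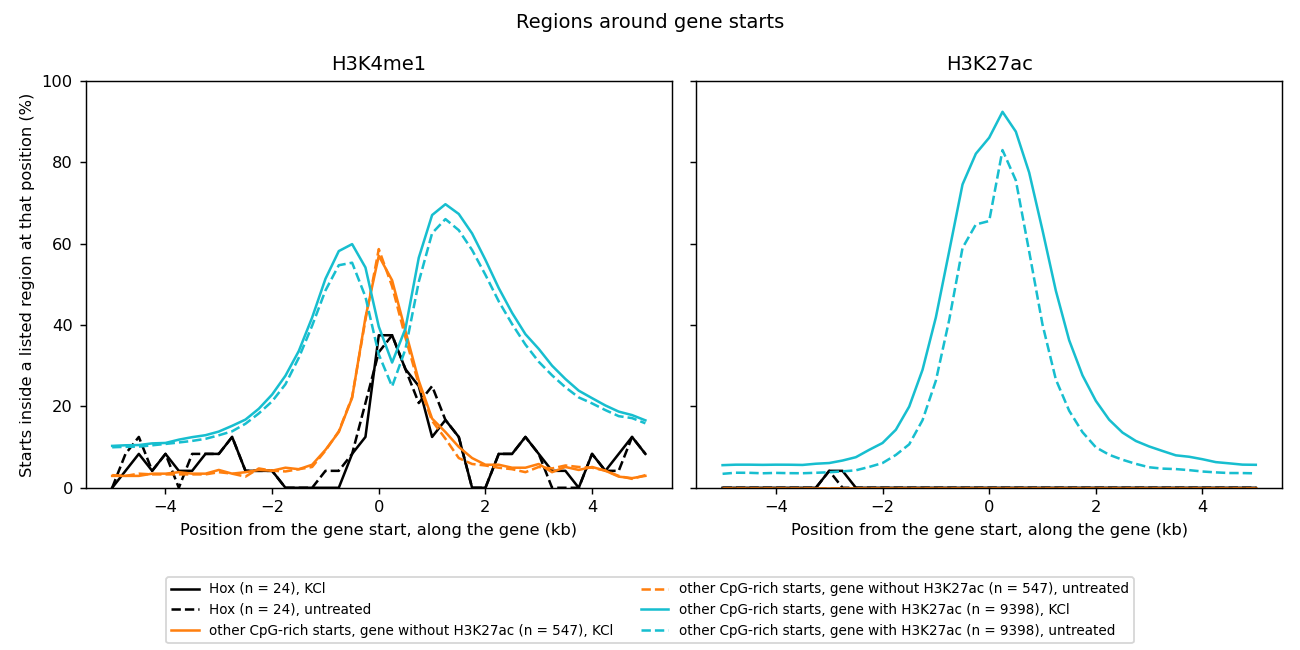
Share of gene starts inside a listed region (y axis, %) at each position from 5 kb before to 5 kb after the start (x axis, kb, along the gene), H3K4me1 on the left and H3K27ac on the right, solid lines for KCl and dashed lines for untreated. Hox starts (black, n = 24) have an H3K4me1 maximum of 37.5%, at the start and 250 bp into the gene with KCl. Untreated, it lies 250 bp into the gene, with 33.3% at the start. Other CpG-rich starts of genes without H3K27ac (orange, n = 547) have their maximum at the start. CpG-rich starts of genes with H3K27ac (blue, n = 9398) have a dip, lowest 250 bp into the gene.

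Genes that work with or lie beside the Hox genes are read against the shares over all protein-coding genes given above, for H3K27ac 66% with KCl and 62.9% untreated. The Hox cofactors of the Pbx, Meis and Pknox families, which bind DNA together with Hox proteins, had H3K27ac at 9 of 9 genes with KCl and 8 of 9 untreated, Meis1 being the exception, and Gtf3c1 at 9 of 9 in both lists. Polycomb and Trithorax genes, whose products regulate Hox clusters, had H3K27ac at 24 of 24 in both. Of 15 genes next to the clusters, H3K27ac lay near 11 in both lists, close to the share over all genes; the other 4 were Calcoco2, Evx1, Evx2 and Ttll6, which also had no Gtf3c1. H3K4me1 lay near all 15. The non-coding genes inside the clusters, antisense RNAs and microRNAs, had H3K27ac near 0 of 17 in both lists. H3K4me1 lay near 13 of the 17 with KCl and 15 untreated, where 77.9% (KCl) and 77.8% (untreated) of all protein-coding genes had it, so the KCl count is near the background. Among them Gtf3c1 lay near Hoxd3os1 with KCl and near Hoxaas3 untreated, the same regions as above.

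Among other transcription factors, most forebrain homeobox genes had H3K27ac and most factors of other lineages did not. The forebrain homeobox genes had H3K27ac at 19 of 22 with KCl and 17 of 22 untreated; Gsx2, Nkx2-1 and Otx2 had none in either list, and Six3 was among those that had it with KCl alone. Transcription factors of other lineages, among them Gata, Tbx and Cdx genes, had H3K27ac at 7 of 30 with KCl and 5 of 30 untreated but H3K4me1 at 27 with KCl and 28 untreated. Cdx1, Gata2, Prrx1 and Tal1 had H3K27ac in both lists and Pax7 had it untreated alone, and Cdx2 and Gata6 were among those that had it with KCl alone. Cdx4 and Gata1 were without H3K4me1 in either list, as Hoxb1 was. Activity genes such as Fos and Npas4 had H3K27ac at 8 of 8 in both conditions, and housekeeping genes at 13 of 13 with KCl and 12 of 13 untreated.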

How the data were processed

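ChIP-seq regions of 4 antibodies in KCl-treated and untreated cortical neurons were grouped by sample title. The submitters' processing notes name Bowtie2, MACS2 and GRCm38/mm10, without versions. The design text gives 3 biological replicates per condition and total input as control; nothing read here says whether replicates were pooled before calling, and input was not used. Each deposited list gives a score, a fold enrichment (a ratio) and −log10 p and −log10 q per region, all the authors' values, used within a list only. The lowest deposited −log10 q was 1.30 to 1.46, so the lists were treated as made at a q of 0.05. Read depth is unknown, so precision is given only as exact binomial intervals and, for a count of 0, as the share that 3 counts would make.

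RefSeq genes of that build were counted when a region lay over them or within 5 kb. Regions sharing 1 bp or more were called overlapping or shared. RefSeq promoter windows (GRCm38.p6) matched 22 of the 39 Hox genes, and 15 or more CpG was called CpG-rich. Python 3.11.15, numpy 2.4.6, pandas 2.3.3, scipy 1.17.1 and matplotlib 3.10.9 were used, and the counting was tested on simulated data. Full values are given for Hox genes with Gtf3c1, Rpc155 or H3K27ac within 5 kb, the strongest region of each list over the clusters, regions of these 3 antibodies in 1 condition alone and the longest stretches without a region; members of comparison lists are named where at most 5 differ between conditions or lack or have a region. Kiaa1715 and Hoxc13as of those lists were not matched. The Hox set, the lists and the alternatives (other distances, stricter q, equal list lengths, summits only, 50% overlap, other CpG splits) were chosen with earlier results of these data known. No p-value was computed. Some genes are counted but not reported by name here.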

Additional observations from a re-analysis of the deposited data

How the results depend on the processing

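Across the alternatives the H3K4me1 counts ran from 31 to 39 Hox genes with KCl and from 32 to 39 untreated. Within 1 kb they were nearest to the background: 79.5% with KCl and 82.1% untreated, against 74.6% and 74.5% of all protein-coding genes. The small counts moved with distance. Within 1 kb of a gene, Gtf3c1 lay near 2 Hox genes with KCl and 1 untreated, Rpc155 near 0 with KCl, and H3K27ac near 1 with KCl and 0 untreated. Over all protein-coding genes the KCl and untreated shares within 1 kb were 55.1% and 55.8% for Gtf3c1 and 62.9% and 59.5% for H3K27ac, and 12.4% for Rpc155 with KCl. Within 20 kb the KCl and untreated counts were 12 and 6 for Gtf3c1 and 7 and 6 for H3K27ac, and the KCl count was 6 for Rpc155 (15.4%), where all genes had 67.0% and 69.5%, 73.1% and 71.0%, and 21.0% in that order. With only regions at or under a q of 1e-05 kept, the Rpc155 region of the KCl list and the Gtf3c1 region of the untreated list were lost, leaving 0 genes and 0 bp covered, against 2 genes and 288 bp for Rpc155 and 2 genes and 199 bp for Gtf3c1. Of all genes 5.28% still had Rpc155 (KCl) and 47.8% Gtf3c1 (untreated). The −log10 q of the lost regions lay below the stricter limit by construction. Of 82 alternatives, 68 stayed within 1.5 times the value given or within its counting interval and 14 moved. This tally does not measure how firm the results are. Equal list lengths left the shorter list of each pair uncut, so its gene counts and covered base pairs could not move. Narrower settings could not lower the Rpc155 count of 0 untreated. The limit of 1.5 times is wide enough to take in the H3K4me1 share over all genes. Splitting promoter windows at 10 or 20 CpG, chosen after seeing the data, gave H3K4me1 over 47.1% and 72.7% of the CpG-richer Hox windows in both lists, against 66.7% at 15. It gave 14.3% (1 of 7) and 7.69% (1 of 13) of the CpG-poorer ones, against 8.33% (1 of 12). For other genes without H3K27ac the CpG-richer share was 51.7% (KCl) and 51.9% (untreated) at 10 CpG, and 63.4% and 65.0% at 20. The CpG-richer Hox share thus lay below theirs at 10 and above it at 15 and 20. No paired analysis was possible because each antibody and condition has 1 list. Depth limits what an empty stretch means: an absent region is an absent call.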
